A study of Homo sapiens with 15 samples.

Results

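Genes of elastic fibre assembly and collagen crosslinking were followed in BEAS-2B, an immortalized line derived from human bronchial epithelium, exposed to PM2.5 collected in Beijing. They were 4 lysyl oxidases (LOX, LOXL1, LOXL2 and LOXL4), 4 fibulins (EFEMP1, which is fibulin-3, EFEMP2, which is fibulin-4, FBLN1 and FBLN5), the microfibril protein FBN1 and the SPARC-family protein SMOC1. These are 10 of the 58219 genes in the count table, matched by Ensembl identifier, and all 10 were among the 17599 genes that passed the filter on low counts. The set was chosen by the fold-changes of LOX, EFEMP1 and SMOC1 at 1 µg/cm2 for 24 h, where these 3 genes were lower than in the control. The values of that comparison are therefore a description, with no test.

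RNA was sequenced from 15 libraries, 3 experiments for each of 5 conditions, all of BEAS-2B cells grown in serum-free bronchial epithelial medium on collagen-coated plastic. In the 24 h protocol cells received fresh medium alone, which the study also calls vehicle control, or 1 µg/cm2 or 30 µg/cm2 of PM2.5. In the repeated protocol cells received medium alone or 1 µg/cm2 of PM2.5 every day, with a wash between exposures. That protocol is labelled as 7 days. The methods of the study describe 3 independent experiments, and the numbers of both protocols belong to different experiments. The particles were an aqueous extract of filters, given in medium over submerged cells of a single line, which limits these groups as a model of airway exposure.

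The libraries held 21460981 to 34724765 counted reads, so that the floor of 3 counts equals 0.0866 to 0.149 CPM (reads of a gene relative to the size of its library, with sizes adjusted by TMM), which covers counting error only. LOXL4 had the lowest counts of the set, 15 to 49 per library, and EFEMP1 the highest, up to 42072. All 8 bronchial epithelial markers examined (KRT5, KRT8, KRT14, KRT18, KRT19, EPCAM, CDH1 and TP63) were at 1 CPM or more in every condition. Of 7 mesenchymal markers, 5 were also at 1 CPM or more, among them VIM and THY1. The endothelial markers PECAM1 and CDH5 together never exceeded 0.246 CPM, and the leukocyte markers PTPRC and CD68 never 0.170 CPM. Experiment 2 of the 24 h protocol stood apart from experiments 1 and 3, and mitochondrial genes took 4.13% to 4.40% of counts in its libraries against 2.76% to 3.42% in the other 24 h libraries. Its part in the results below was not tested, and values without it are given where calls rest on it.

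Lysyl oxidases are secreted copper enzymes that oxidize lysines of elastin and collagen, the step from which crosslinks form. Fibulins are calcium-binding glycoproteins that link tropoelastin, lysyl oxidases and microfibrils, and FBN1 (fibrillin-1) is the main structural protein of microfibrils. SMOC1 is a secreted calcium-binding matricellular protein that antagonizes BMP signalling. In the lung these proteins are best known from fibroblasts and smooth muscle, which lay down the elastic fibres of airway and alveolar walls.

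LOX, the founding member of its family, lies at chr5:122063195-122078360 on the minus strand of GRCh38. Its mean fell from 90.9 CPM in the 24 h control to 50.1 CPM at 1 µg/cm2 and 25.9 CPM at 30 µg/cm2. EFEMP1 (chr2:55865967-55924139, minus strand) went from 1162 to 558 and 251 CPM over the same 3 conditions. SMOC1 (chr14:69854131-70032366, plus strand) stood at 57.9, 21.7 and 17.6 CPM. The means of LOX and EFEMP1 thus stepped down at both doses, while most of the difference in SMOC1 was already present at 1 µg/cm2.

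The promoter sequences of LOX and SMOC1, which differed between the 24 h conditions, are shown as examples. Both stretches hold a CCAAT box, the core letters bound by NF-Y, in opposite orientations. Each line gives 150 bases that end at the base before a RefSeq start site, 5′ to 3′ on the strand of the gene, with CCAAT or its reverse complement ATTGG in capitals. The LOX stretch is chr5:122078260-122078409 (minus strand) and the SMOC1 stretch chr14:69879266-69879415 (plus strand), both from RefSeq on GRCh38.p14.
LOX: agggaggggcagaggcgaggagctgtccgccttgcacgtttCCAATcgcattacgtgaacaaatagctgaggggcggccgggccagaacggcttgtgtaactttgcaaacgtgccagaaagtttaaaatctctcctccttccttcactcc
SMOC1: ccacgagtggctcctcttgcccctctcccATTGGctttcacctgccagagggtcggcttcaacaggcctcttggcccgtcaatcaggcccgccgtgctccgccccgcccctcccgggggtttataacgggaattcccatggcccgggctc
The motif begins 109 bases before the LOX start and 121 bases before the SMOC1 start. Of the 35116 RefSeq windows of 300 bases (250 before to 50 after a start), 34.6% hold CCAAT on either strand. The set had 11 such windows for 8 of its genes, and 4 of them held CCAAT. The core letters of the aryl hydrocarbon receptor element, GCGTG on either strand, were in 5 of the 11 windows and in 36.5% of all windows. Neither the LOX window shown nor the SMOC1 window held GCGTG, but the windows of both other LOX start sites did. TATAAA or its reverse complement was in the SMOC1 window and in 1 FBLN5 window, and in 11.5% of all windows. These matches describe letters in the reference sequence and carry no measurement of binding.

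In the vehicle controls of the 24 h protocol, LOX measured 98.4, 72.4 and 102 CPM in experiments 1, 2 and 3. At 1 µg/cm2 for 24 h it measured 51.0, 46.2 and 53.0 CPM. At 30 µg/cm2 it measured 22.9, 29.2 and 25.5 CPM. The 3 conditions did not overlap in LOX, and experiment 2 had the lowest control and the highest value at 30 µg/cm2.

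EFEMP1 measured 1267, 862 and 1357 CPM in the 24 h controls. At 1 µg/cm2 it measured 527, 545 and 602 CPM, and at 30 µg/cm2 232, 269 and 251 CPM. Its 3 conditions did not overlap either, and the control of experiment 2 was again the lowest of the controls.

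SMOC1 measured 63.3, 40.9 and 69.5 CPM in the 24 h controls. At 1 µg/cm2 it measured 20.4, 23.1 and 21.7 CPM, and at 30 µg/cm2 18.7, 17.7 and 16.5 CPM. The libraries of both doses lay below every control, and those at 30 µg/cm2 just below those at 1 µg/cm2.

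**Figure D1:**
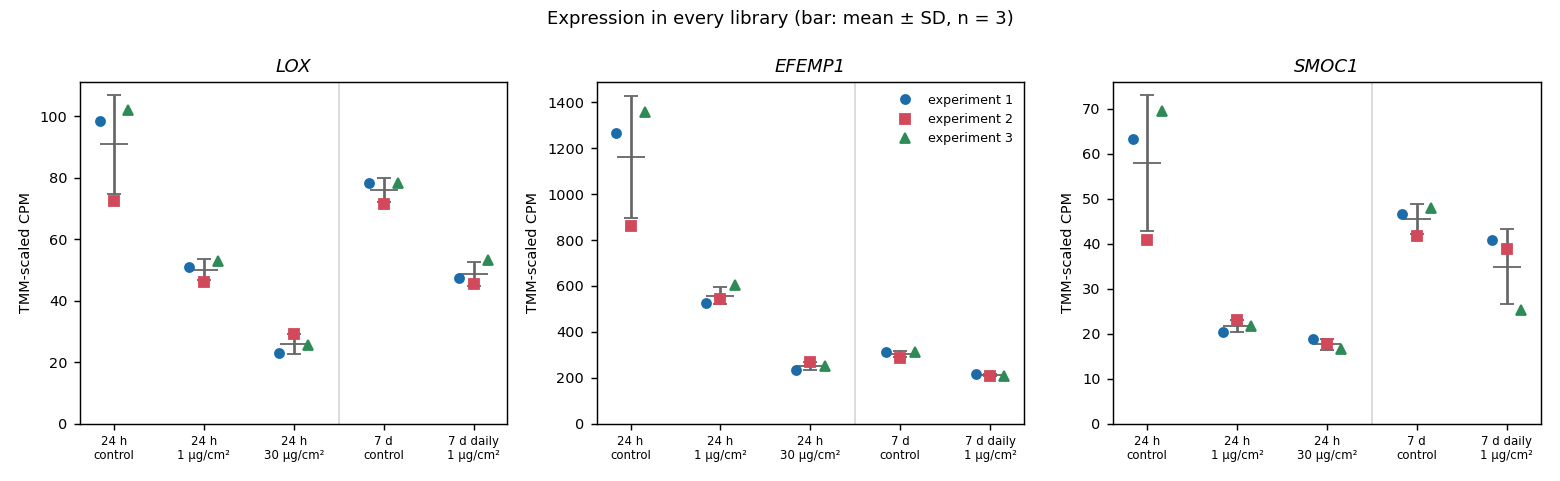
TMM-scaled CPM of LOX, EFEMP1 and SMOC1 in the 15 libraries, by condition on the x axis, with 1 symbol per experiment and the mean ± SD (n = 3) as a grey bar. LOX and EFEMP1 step down at both doses after 24 h, SMOC1 lies between 16.5 and 23.1 CPM at both doses, and EFEMP1 in the 7 d controls (287 to 312 CPM) is far below its 24 h controls.

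For 1 µg/cm2 against control at 24 h, the comparison that chose the set, the fitted log2 fold-changes were -0.86 (SE 0.140) for LOX, -1.06 (SE 0.149) for EFEMP1 and -1.41 (SE 0.200) for SMOC1. In experiments 1, 2 and 3 the log2 ratios were -0.95, -0.65 and -0.94 for LOX. They were -1.26, -0.66 and -1.17 for EFEMP1 and -1.63, -0.83 and -1.68 for SMOC1. Experiment 2, whose controls were low, gave the smallest change in each of the 3 genes. Without it the fitted values were -0.93 for LOX, -1.21 for EFEMP1 and -1.65 for SMOC1. Their libraries did not overlap between conditions, which was so in the lower direction for 2.13% of all genes tested. In this comparison 0.017% of all genes were called lower. Because the comparison chose these 3 genes, both shares are background only and carry no evidence about LOX, EFEMP1 or SMOC1. The other 7 genes ranged from -0.18 (FBN1) to 0.14 (LOXL1), and the libraries of all 7 overlapped with the controls. Single libraries set several of these values: with each library left out, FBLN5 ranged from -0.70 (without the 1 µg/cm2 library of experiment 2) to 0.51 (without its control). FBLN1 ranged from -0.30 to 0.34 and EFEMP2 from -0.29 to 0.38 at the same 2 libraries, and LOXL4 was 0.54 without experiment 2.

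After 24 h at 30 µg/cm2 all 10 genes had fitted log2 fold-changes below 0, and LOX, EFEMP1, SMOC1, LOXL2 and FBN1 passed the test. Passing meant a p-value under 0.05 after Benjamini-Hochberg adjustment over all genes together with a log2 fold-change of 0.6 or more in size, in edgeR's quasi-likelihood fit of all libraries. The median of the 10 genes was -0.78 against 0.03 over all genes tested. Against 5 of 10 called lower, 4.24% of all genes were called lower. The same 5 genes had libraries wholly below the controls, which held for 11.1% of all genes. This comparison used the same 24 h control libraries that entered the choice of the set, so its values for LOX, EFEMP1 and SMOC1 are not independent of that choice. In RNA from whole cultures, fewer cells expressing a gene and less RNA per cell cannot be told apart.

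LOX fell by 1.81 on the log2 scale at 30 µg/cm2 (SE 0.144, edgeR adjusted p = 1.18e-05), to 0.285 of its control level in means of CPM. LOXL2, which also modifies collagen IV of basement membranes, fell by 0.70 (SE 0.143, edgeR adjusted p = 0.00683). LOXL2 lies at chr8:23297189-23425328 and measured 62.8, 69.2 and 65.6 CPM in the 24 h controls. At 30 µg/cm2 it measured 35.8, 49.2 and 36.8 CPM, with no overlap, whereas at 1 µg/cm2 it measured 69.4, 58.4 and 72.0 CPM. LOXL1 (chr15:73925989-73952137), an oxidase tied to elastic fibre renewal, had a log2 fold-change of -0.32 (SE 0.202, edgeR adjusted p = 0.373) and overlapping libraries. LOXL4 (chr10:98247690-98268250) had a log2 fold-change of -0.89 with an SE of 0.361 (edgeR adjusted p = 0.145). LOXL4 was at 0.493 to 1.08 CPM at 30 µg/cm2 and 1.06 to 2.21 CPM in the controls, so that its fold-change rests on few reads.

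FBN1 (chr15:48408306-48645849) measured 148, 154 and 116 CPM in the 24 h controls and 88.1, 60.3 and 83.8 CPM at 30 µg/cm2. It fell by 0.85 on the log2 scale (SE 0.200, edgeR adjusted p = 0.0154). At 1 µg/cm2 FBN1 was 151, 84.9 and 133 CPM, and the low value came from experiment 2. The libraries at 30 µg/cm2 lay wholly below the controls, but those at 1 µg/cm2 overlapped with both.

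Among the fibulins, EFEMP1 had the largest change at 30 µg/cm2, a fall of 2.21 on the log2 scale (SE 0.155, edgeR adjusted p = 5.62e-06), to 0.216 of its control level. EFEMP2 (chr11:65866441-65873592), which brings LOX to tropoelastin, had a log2 fold-change of -0.66 (SE 0.320, edgeR adjusted p = 0.233). FBLN1 (chr22:45502238-45601135), an elastic fibre and basement membrane protein, had -0.71 (SE 0.281, edgeR adjusted p = 0.139). FBLN5 (chr14:91869412-91947987), which binds elastin and LOXL1, had -0.71 (SE 0.397, edgeR adjusted p = 0.306). Without the control library of experiment 2 the FBLN5 value was -0.06, and that of LOXL4 -0.49. In these 3 genes experiment 2 was the highest in each of the 3 conditions, and the libraries overlapped. EFEMP2 measured 30.0, 45.6 and 28.7 CPM in the controls and 17.0, 34.4 and 14.4 CPM at 30 µg/cm2. FBLN1 measured 416, 702 and 451 CPM in the controls and 244, 457 and 260 CPM at 30 µg/cm2. FBLN5 measured 13.3, 39.2 and 15.3 CPM in the controls and 11.0, 18.4 and 11.8 CPM at 30 µg/cm2. Each of the 3 was lower than its own control in every experiment.

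SMOC1 fell by 1.72 on the log2 scale at 30 µg/cm2 (SE 0.202, edgeR adjusted p = 0.000153). With the experiment as a block in the fit, 7 of the 10 genes were called lower, against 7.87% of all genes. The additions were EFEMP2 (edgeR adjusted p = 0.000362 with the block) and FBLN1 (edgeR adjusted p = 8.26e-05 with the block). Without experiment 2 those same 7 genes were called, against 9.95% of all genes. When the fit held only the libraries of both groups, 3 genes were called, and LOXL2 (edgeR adjusted p = 0.0788) and FBN1 (edgeR adjusted p = 0.0886) were not. LOX, EFEMP1 and SMOC1 were called in every alternative run, whose list is given with the processing. Those runs reuse 24 h controls that entered the choice of the set, so they are not independent of it.

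**Figure D2:**
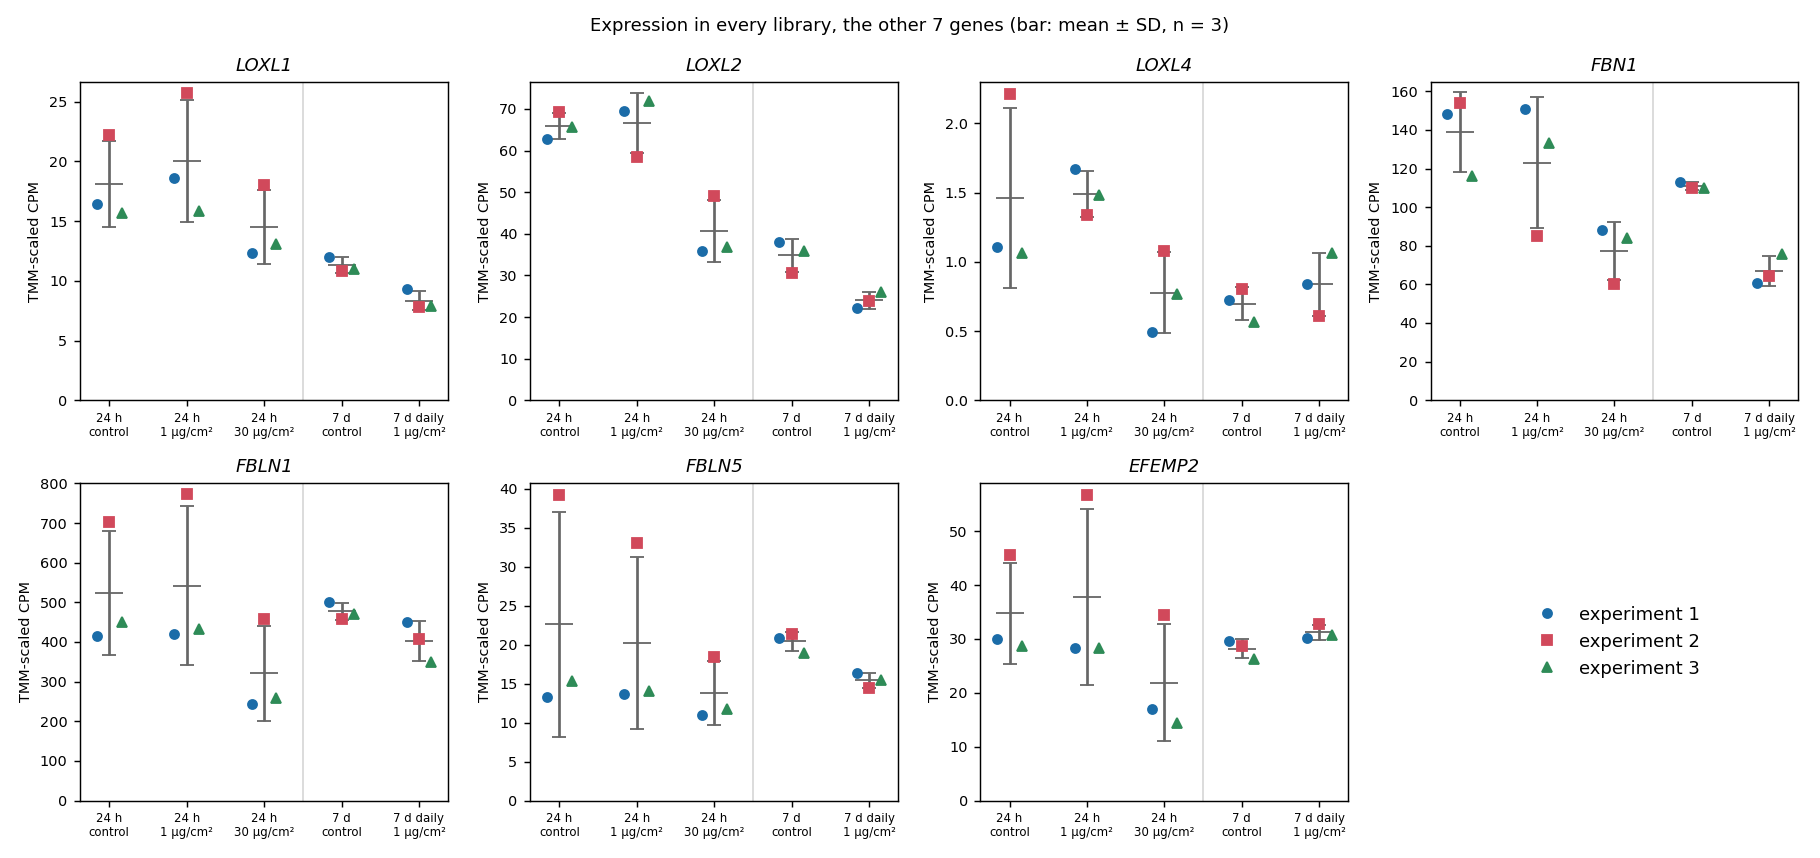
TMM-scaled CPM of the other 7 genes in the 15 libraries, drawn as for LOX, EFEMP1 and SMOC1 with the mean ± SD (n = 3). In LOXL1, EFEMP2, FBLN1 and FBLN5 the red squares of 24 h experiment 2 stand above experiments 1 and 3 in all 3 conditions, so that a fall within each experiment at 30 µg/cm2 still leaves the conditions overlapping.

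Between the doses at 24 h, LOX, EFEMP1, LOXL2 and FBN1 passed the test for lower expression at 30 than at 1 µg/cm2, 4 of 10 against 4.22% of all genes. This comparison shares the 1 µg/cm2 libraries with the choice of the set. LOX fell by 0.95 on the log2 scale (SE 0.141, edgeR adjusted p = 0.000961) and EFEMP1 by 1.15 (SE 0.150, edgeR adjusted p = 0.000452). LOXL2 fell by 0.71 (SE 0.143, edgeR adjusted p = 0.00662). In a fit of only both groups, LOXL2 (edgeR adjusted p = 0.121) and FBN1 (edgeR adjusted p = 0.264) were not called. FBN1 fell by 0.67 (SE 0.200, edgeR adjusted p = 0.0493), with overlapping libraries. The FBN1 call was lost when any of 5 of the 6 libraries was left out, at adjusted p-values of 0.0701 to 0.153. SMOC1 had a log2 fold-change of -0.30 (SE 0.198, edgeR adjusted p = 0.394) between the doses, with log2 ratios of -0.12, -0.38 and -0.40 in experiments 1, 2 and 3. With the block 7 genes were called lower, against 8.58% of all genes. LOXL4, EFEMP2 and FBLN1 were added, with adjusted p-values of 0.0367, 0.000192 and 6.3e-05 in the blocked edgeR fit. The same 7 were called without experiment 2, against 9.97% of all genes.

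After daily exposure to 1 µg/cm2 none of the 10 genes passed the test in the edgeR fit of all libraries, where 0.227% of all genes were called in either direction. These libraries took no part in the choice of the set. At an unadjusted p under 0.05, 5 genes were lower, LOX, LOXL1, LOXL2, EFEMP1 and FBN1, as were 5.64% of all genes. DESeq2 called 2 genes lower, LOX and FBN1, against 0.983% of the genes to which it gave an adjusted p-value. The blocked edgeR fit also called LOX and FBN1, against 2.79% of all genes called lower with the block. The same pair was called when the libraries of 24 h experiment 2 were left out of the shared estimate of the spread, against 3.40% of all genes. The median log2 fold-change of the 10 genes was -0.42 against 0.01 over all genes.

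LOX measured 78.3, 71.6 and 78.3 CPM in the 7 d controls and 47.4, 45.5 and 53.2 CPM after daily exposure. Its log2 fold-change was -0.64 (SE 0.139, edgeR adjusted p = 0.0897, and 0.00854 with the block). FBN1 measured 113, 110 and 110 CPM in the 7 d controls and 60.8, 64.2 and 75.8 CPM after daily exposure. Its log2 fold-change was -0.73 (SE 0.200, edgeR adjusted p = 0.151, and 0.0156 with the block). The libraries of both genes were wholly separate, and every experiment gave a lower value in the treated cells. Treated libraries lay wholly below the controls for 21.6% of all genes in this protocol.

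EFEMP1 measured 312, 287 and 312 CPM in the 7 d controls and 216, 207 and 208 CPM after daily exposure, a log2 fold-change of -0.53 (SE 0.148, edgeR adjusted p = 0.162). LOXL2 measured 38.0, 30.5 and 35.8 CPM in those controls and 22.1, 23.8 and 26.1 CPM after exposure, a log2 fold-change of -0.53 (SE 0.143, edgeR adjusted p = 0.145). LOXL1 measured 12.0, 10.8 and 11.0 CPM in the controls and 9.27, 7.83 and 7.89 CPM after exposure, a log2 fold-change of -0.44 (SE 0.204, edgeR adjusted p = 0.417). In these 3 genes the groups did not overlap, which in the lower direction held for 21.6% of all genes. Neither the size threshold nor the adjusted p-value was met in the edgeR fit without the block. With the block the edgeR adjusted p-values of EFEMP1, LOXL2 and LOXL1 were 0.0241, 0.0236 and 0.0183, and only the size threshold was missed. The DESeq2 adjusted p-values were 0.022, 0.016 and 0.313.

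SMOC1 measured 46.5, 41.7 and 48.0 CPM in the 7 d controls and 40.7, 38.8 and 25.2 CPM after daily exposure. Experiment 3 was far below its control and experiments 1 and 2 were close to theirs, and the log2 fold-change was -0.38 (SE 0.196, edgeR adjusted p = 0.475). FBLN1 and FBLN5 had log2 fold-changes of -0.24 (SE 0.280) and -0.41 (SE 0.394). EFEMP2 was higher in all 3 treated libraries (30.1, 32.8 and 30.7 CPM) than in the controls (29.6, 28.7 and 26.3 CPM), with a log2 fold-change of 0.15 (SE 0.317, edgeR adjusted p = 0.899). LOXL4 had 0.26 (SE 0.365) and overlapping libraries. In total, 8 of the 10 genes had treated libraries wholly below the controls, as had 21.6% of all genes in this protocol.

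Set beside each other, the fitted responses to 1 µg/cm2 at 24 h and after daily exposure were -0.86 and -0.64 for LOX. For EFEMP1 they were -1.06 and -0.53, and for SMOC1 -1.41 and -0.38. For LOXL2 they were 0.02 and -0.53, and for FBN1 -0.18 and -0.73. The 3 genes that chose the set had the smaller values after daily exposure, and LOXL2 and FBN1 the larger ones. These differences were not tested, because the response at 24 h chose the set.

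**Figure D3:**
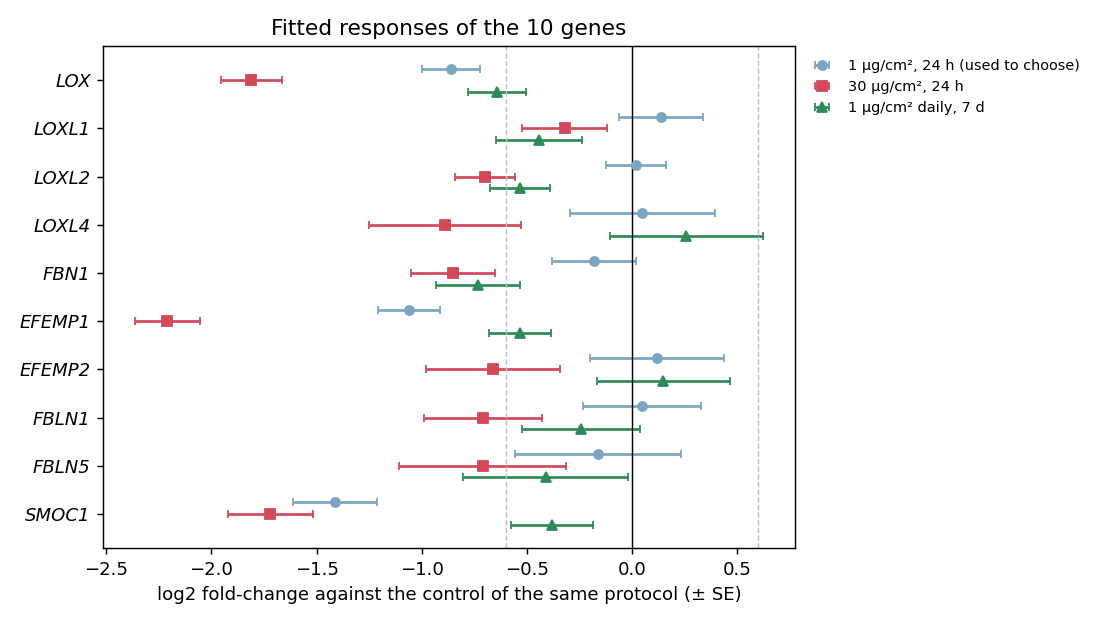
Fitted log2 fold-changes of the 10 genes against the control of the same protocol, with the SE as a bar, for 1 µg/cm2 at 24 h (blue circles, the comparison that chose the set), 30 µg/cm2 at 24 h (red squares) and daily 1 µg/cm2 (green triangles). Dashed lines mark a log2 fold-change of 0.6 in either direction. All red squares lie below 0, from -0.32 (LOXL1) to -2.21 (EFEMP1), and the green triangles lie between -0.73 (FBN1) and 0.26 (LOXL4).

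The controls of both protocols differed as well. EFEMP1 was 3.83-fold lower in the 7 d than in the 24 h controls, a log2 fold-change of -1.94 (SE 0.153, edgeR adjusted p = 6.32e-06). Its 7 d controls, at 287 to 312 CPM, were just above the 24 h libraries at 30 µg/cm2, at 232 to 269 CPM. LOXL2 fell by 0.92 on the log2 scale between the controls (SE 0.143, edgeR adjusted p = 0.000424). LOXL1 (-0.68, SE 0.203, edgeR adjusted p = 0.0224) and LOXL4 (-1.05, SE 0.361, edgeR adjusted p = 0.0424) were called too, making 4 of 10 lower against 10.8% of all genes. Without 24 h experiment 2, the LOXL1 value was -0.53 and the LOXL4 value -0.66, and neither was called. For LOX, SMOC1 and FBN1 the log2 fold-changes were -0.26, -0.35 and -0.33, with edgeR adjusted p-values of 0.184, 0.196 and 0.238. The methods of the study give a lower plating density and daily washes for the repeated protocol. Duration, plating density, washes, the number of medium changes and the experiments themselves cannot be told apart in this comparison. It also shares the 24 h controls with the choice of the set.

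Levels were compared between genes as CPM per kilobase of exon. EFEMP1 led in the 24 h controls at 293 ± 66.6 (SD, n = 3), followed by FBLN1 at 71.8 ± 21.4, LOX at 16.4 ± 2.89, SMOC1 at 13.3 ± 3.45 and LOXL2 at 11.5 ± 0.562. FBN1, EFEMP2, LOXL1 and FBLN5 followed at 8.67 down to 4.55 CPM per kilobase, and LOXL4 was last at 0.401. EFEMP1 and FBLN1 did not overlap with the gene below them in this order, whereas LOX overlapped with SMOC1 and SMOC1 with LOXL2. FBN1, EFEMP2, LOXL1 and FBLN5 also overlapped from neighbour to neighbour.

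At 1 µg/cm2 for 24 h, EFEMP1 (141 CPM per kilobase) and FBLN1 (74.3) still led, and LOXL2 at 11.7 ± 1.26 stood above LOX at 9.03 ± 0.631 without overlap. SMOC1, at 4.97 CPM per kilobase, had dropped below FBN1, EFEMP2 and LOXL1 in the order, with ranges that overlapped between neighbours. At 30 µg/cm2 the ranges of EFEMP1 (63.3 ± 4.77) and FBLN1 (44.0 ± 16.3) overlapped, and LOXL2 at 7.12 ± 1.31 stood next. LOX, at 4.66 CPM per kilobase, overlapped with FBN1 at 4.82 and EFEMP2 at 4.07.

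In the 7 d controls the order opened with EFEMP1 at 76.7 ± 3.64 CPM per kilobase, FBLN1 at 65.4 ± 3.03, LOX at 13.7 ± 0.700 and SMOC1 at 10.4 ± 0.757, with no overlap among them. After daily exposure FBLN1 (55.3 ± 6.89) and EFEMP1 (53.1 ± 1.27) overlapped, as did LOX (8.78) and SMOC1 (7.99). LOXL4 was last in all 5 conditions.

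The 10 genes summed to 431 ± 45.7 CPM per kilobase in the 24 h controls, 265 ± 29.2 at 1 µg/cm2 and 139 ± 25.2 at 30 µg/cm2. They summed to 192 ± 8.30 in the 7 d controls and 145 ± 8.53 after daily exposure. EFEMP1 made up 67.4% ± 8.93 of the sum in the 24 h controls, 53.4% ± 6.39 at 1 µg/cm2 and 46.1% ± 4.89 at 30 µg/cm2. It made up 40.0% ± 0.669 in the 7 d controls and 36.7% ± 1.55 after daily exposure. At 24 h most of the fall in the sum was thus the fall of EFEMP1, which also entered the choice of the set. Among the 4 lysyl oxidases, the share of LOX was 49.0% in the 24 h controls, 33.9% at 1 µg/cm2 and 29.4% at 30 µg/cm2. In the 7 d protocol it was 59.4% in the controls and 56.6% after exposure.

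**Figure D4:**
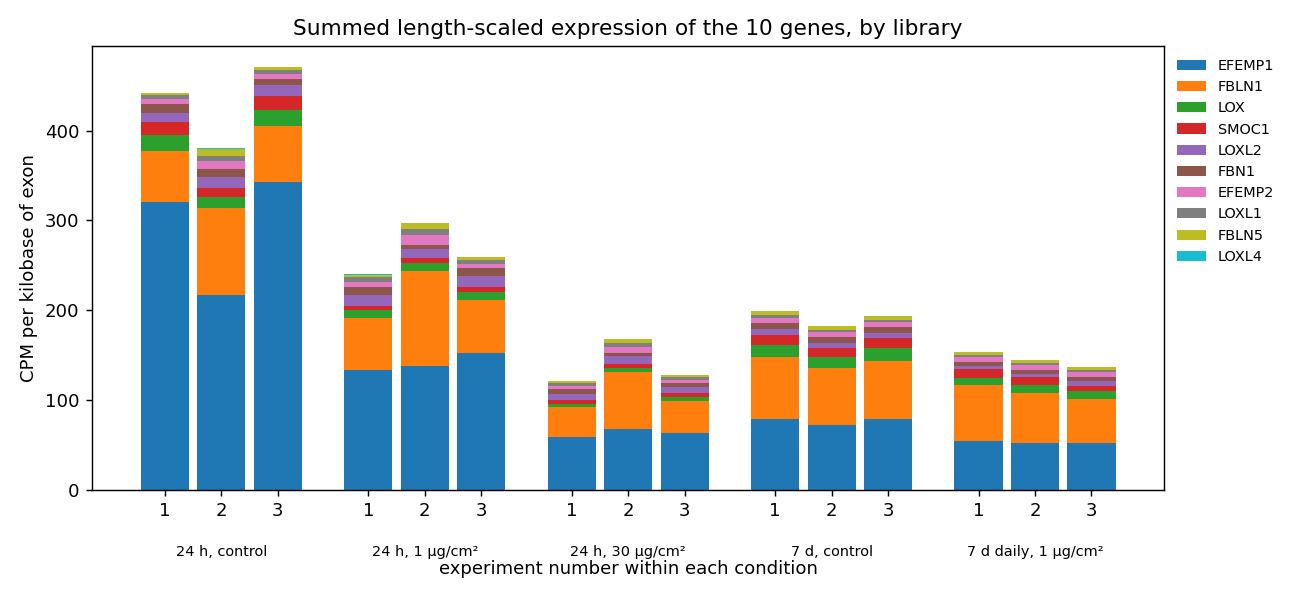
Stacked CPM per kilobase of exon of the 10 genes in each library, with the 3 experiments of each condition side by side. The blue EFEMP1 block shrinks from 217 to 343 in the 24 h controls to 58.4 to 68.0 at 30 µg/cm2, and in the 7 d protocol it is about as tall as the orange FBLN1 block.

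Over all 15 libraries and the 13310 genes with a mean of at least 1 CPM, the genes whose log2 CPM most resembled LOX were DPYD (Pearson's r = 0.940), PCDH18 (0.939) and SFRP1 (0.926). SFRP1, a secreted Wnt antagonist, went from 38.9 CPM in the 24 h controls to 22.5 at 1 µg/cm2 and 10.6 at 30 µg/cm2. SEMA3A (0.994), IL18 (0.979) and PRR5L (0.962) most resembled EFEMP1. SEMA3A, a secreted guidance molecule, stood at 32.6, 20.8 and 10.3 CPM over the 24 h conditions and at 11.8 and 9.36 CPM in the 7 d control and exposed cells, the same order of conditions as EFEMP1 in CPM. SMOC1 was nearest to SFRP1 (0.885), CCDC8 (0.873) and GNB1 (0.815). Within the set, LOX correlated with SMOC1 at 0.87, FBLN1 with EFEMP2 at 0.92 and with FBLN5 at 0.89, and LOXL1 with LOXL2 at 0.89. SMOC1 with LOXL1 gave -0.16 and with LOXL2 -0.02. These correlations are descriptions over 15 libraries that share conditions, experiments and depth.

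The partners of these genes were read from lists, of which no gene was called at 1 µg/cm2 for 24 h. At 30 µg/cm2, 4.24% of all genes tested were called lower, or 7.87% with the block. Called higher without the block were 673 of the 17599 genes tested. The median log2 fold-change over all genes was 0.03. After daily exposure 0.227% of all genes were called in either direction, and 2.79% were called lower with the block. The counts of each list below stand beside these shares. Of 18 tested elastic fibre and microfibril genes, 2 fell at 30 µg/cm2 and none rose, with a median log2 fold-change of -0.66. FBLN2 fell by 1.31 (SE 0.298, edgeR adjusted p = 0.0125) and ADAMTSL4, a microfibril-associated protein, by 0.71 (SE 0.197, edgeR adjusted p = 0.0350). With the block 8 of the 18 fell. ELN, which encodes tropoelastin, was at 1.84 CPM in the 24 h controls and 1.57 CPM at 30 µg/cm2. MFAP4 and FBN2 had log2 fold-changes of -1.38 and -0.84 and were called with the block but not without it. Between the doses FBLN2 alone was called of this list, and after daily exposure none was, or FBLN2 and LTBP2 with the block.

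Of 4 tested SPARC-family genes other than SMOC1, 2 fell at 30 µg/cm2, with a median log2 fold-change of -0.99. SPARC, a collagen-binding matricellular protein, fell by 1.22 (SE 0.140, edgeR adjusted p = 0.000133) and FSTL1 by 0.78 (SE 0.205, edgeR adjusted p = 0.0264). After daily exposure none of the 4 was called. Unlike SMOC1, SPARC was called lower at 30 than at 1 µg/cm2, by 1.03 on the log2 scale (SE 0.139, edgeR adjusted p = 0.000563). Whether the 2 genes differ in that step was not tested.

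Of 17 genes for fibrillar collagens, their processing and hydroxylation, 4 fell at 30 µg/cm2 and none rose, with a median of -0.47. COL5A2 fell by 1.23 and COL5A1 by 0.96, with edgeR adjusted p-values of 0.000535 and 0.000372. The procollagen and pro-LOX protease TLL1 fell by 2.13 from a low level of 1.06 CPM, and the lysyl hydroxylase PLOD2 by 0.74. COL1A1, COL1A2 and COL3A1, substrates of lysyl oxidases, had log2 fold-changes of -0.36, 0.37 and 0.49 and were not called. With the block 6 of the 17 fell. After daily exposure COL5A1 was called, with a fall of 0.85 (SE 0.128, edgeR adjusted p = 0.0255).

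The 4 copper delivery genes had a median log2 fold-change of 0.03 at 30 µg/cm2. Of these the copper importer SLC31A1 rose by 0.80 (SE 0.139, edgeR adjusted p = 0.00239). ATP7A, which loads copper onto secreted enzymes, had a log2 fold-change of 0.01 (SE 0.286). None of the 4 was called after daily exposure.

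Of 17 tested genes of TGF-beta and BMP signalling, 3 fell at 30 µg/cm2. The inhibitory SMAD7 rose by 0.77 (SE 0.174, edgeR adjusted p = 0.0119). The BMP target ID3 fell by 1.91 (SE 0.309, edgeR adjusted p = 0.00147), SMAD6 by 2.08 and the ligand BMP4 by 0.95. TGFB1 had a log2 fold-change of -0.07 (SE 0.170). None of the 17 was called after daily exposure, and FN1 was called lower with the block.

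Markers of cell type moved in the same comparisons. The 8 epithelial markers summed to 2014 to 2534 CPM in the 24 h controls and 850 to 1314 CPM at 30 µg/cm2. There 4 of the 8 were called lower, against 4.24% of all genes, with KRT5 at -2.46 (SE 0.183, edgeR adjusted p = 7.57e-06). The 7 mesenchymal markers summed to 511 to 823 CPM in those controls and 350 to 564 CPM at 30 µg/cm2. PDGFRB and THY1 were called lower, and VIM was at -0.57. PDGFRA, LUM, DCN and CDH2 had log2 fold-changes of 0.01, 0.05, 0.10 and 0.23, and the median of the 7 was 0.01. The mesenchymal markers thus did not fall as a class. After daily exposure the epithelial sum was 1428 to 1565 CPM against 2276 to 2792 CPM, with KRT5 and TP63 called lower. With the block 4 of the 8 were called lower, against 2.79% of all genes. The mesenchymal sum was then 179 to 257 CPM against 271 to 300 CPM, with none called, or PDGFRB with the block. Between the controls of both protocols, the mesenchymal markers THY1, CDH2 and VIM were called lower at 7 d, as were 10.8% of all genes. Of the epithelial markers, CDH1, EPCAM, TP63 and KRT19 were called higher, but KRT18 (-1.35, edgeR adjusted p = 0.000173) and KRT8 (-0.79, edgeR adjusted p = 0.0297) lower. Between these controls, 1958 of the 17599 genes tested were called higher. The part of these markers in the values of LOX, EFEMP1, SMOC1 and the other genes was not tested.

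Exons of 5 of the 10 genes overlap those of another gene, and the strand setting of the counting is not given in the sources used here. LOX shares 138 exon bases with SRFBP1 on the other strand, LOXL1 335 with LOXL1-AS1, LOXL4 152 with ENSG00000230928 and EFEMP2 11 with MUS81. LOXL2 shares 178 with LOXL2-AS1 and 120, on the same strand, with ENTPD4. How reads in these stretches were counted was not examined.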

How the data were processed

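BEAS-2B libraries were made from mRNA and sequenced as single-end reads of 50 bases. The authors deposited one table of raw counts per gene, aligned with STAR and counted with featureCounts, without normalization, beside the exon length of each gene. The submitters' processing notes name hg19 and the methods of the study GRCh38, and the exon positions in the table match a GRCh38 annotation (GENCODE), from which symbols were taken for 57437 rows. The strand setting and annotation release are not given in the sources used here. Groups and experiment numbers come from the sample titles.

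Counts were filtered with filterByExpr and scaled by TMM in edgeR 4.0.16 (R 4.3.3). One quasi-likelihood model (legacy mode) with a mean per condition was fitted to all 15 libraries. The methods of the study name edgeR's glmQLFit and not which libraries shared a fit. SE is the size of the log2 fold-change over the square root of F. Levels are CPM, or CPM per kilobase of exon. The members and gene lists were chosen with earlier results of these data known. Named genes are the 10 members, the listed genes, and the 3 most correlated genes (on log2 of CPM plus 0.5) for LOX, EFEMP1 and SMOC1. A listed gene and the results that need it are not reported here. The fit was tested on simulated counts with known changes. These were drawn independently for each library, without an effect of experiment, so that structure was not covered.

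The series record gives the experiment number as the experimental batch, so numbers pair libraries within a protocol. Deviations from the group means correlated at 0.271 to 0.785 between 24 h libraries of one experiment and at -0.770 to 0.581 between experiments. In the repeated protocol these were 0.177 to 0.266 and -0.196 to -0.0479. Deviations within a group cancel, which pushes values between experiments negative where those within are positive. The contrast is thus partly built in. The study's methods name no block, so the block is an alternative. The others were RLE scaling, no filter, a filter at 1 CPM in 3 libraries, DESeq2 1.42.0, edgeR's current mode, fits of only the groups compared, each library left out and 24 h experiment 2 left out. For daily exposure, leaving out 24 h experiment 2 was added after the data were seen. The methylation sequencing of the study was not analysed here.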

Additional observations from a re-analysis of the deposited data

Results flagged for a closer look

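LOXL1 was marked because its response to 1 µg/cm2 had opposite signs in both protocols. At 24 h the fitted log2 fold-change was 0.14, with log2 ratios of 0.18, 0.21 and 0.01 in experiments 1, 2 and 3. After daily exposure it was -0.44, with log2 ratios of -0.38, -0.47 and -0.48. Experiment 3 at 24 h was close to 0, the libraries at 24 h overlapped with their controls, and the difference between the protocols was not tested, since the response at 24 h belongs to the comparison that chose the set. Without the 1 µg/cm2 library of 24 h experiment 2 the value at 24 h was -0.07. LOXL2 (0.02 and -0.53) and FBLN1 (0.05 and -0.24) also had opposite signs at 24 h and after daily exposure.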

How the results depend on the processing

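Direction and call of LOX, EFEMP1 and SMOC1 at 30 µg/cm2 were kept under every alternative run. These runs share 24 h controls with the choice of the set. For 1 µg/cm2 at 24 h, 11 genes of the whole table were called, against 74 with the replicate block, 378 without 24 h experiment 2, and 4 to 45 with each library left out. For 30 µg/cm2, 1420 genes were called, against 360 in a fit of only both groups, 2681 with the block, 3430 without experiment 2 and 794 to 2706 with each library left out. The members called there were 5, against 3 in the fit of only both groups and 5 to 8 with each library left out. The 8 came without the 30 µg/cm2 library of experiment 2 and added LOXL4, EFEMP2 and FBLN1. Between the doses, 1379 genes were called, against 149 with only both groups, 2737 with the block, 3113 without experiment 2 and 711 to 2715 with each library left out. The members called were 4, against 2, 7 and 7 in the first 3 of these and 3 to 7 with each library left out. After daily exposure, 40 genes were called, against 251 by DESeq2, 92 with no filter, 1029 with only both groups, 773 with the block, 1083 without 24 h experiment 2 and 0 to 11 with each library left out. The members called were 0, against 2 by DESeq2, with only both groups, with the block and without 24 h experiment 2, each time LOX and FBN1. Leaving out a library also leaves fewer samples. Between the controls, 4 members were called, against 2 without 24 h experiment 2 and 2 to 4 with each library left out, where LOXL1 and LOXL4 lost their calls. FBLN1 (-0.13) and FBLN5 (-0.15) turned to 0.12 and 0.49 both without 24 h experiment 2 and without its control library alone, and ranged from -0.31 to 0.12 and from -0.46 to 0.49 with each library left out. The cause of these shifts was not tested. No paired analysis was possible between the controls because the protocols are separate experiments. The block changed no other call of a member. By Spearman's rho, 5 of the 9 most alike genes were shared.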
